A study of Mus musculus with 12 samples.

Results

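The genes described are 9 scavenger receptors of macrophages, Mrc1, Cd163, Stab1, Colec12, Msr1, Cd36, Scarb1, Marco and Cxcl16. They were taken by name from the 56735 genes of the deposited count table, with earlier results of these data known. The shares over all genes given beside them are therefore no test of this class of receptors. Of these 9 genes, 8 had counts and passed the filter on low counts, and Marco had 0 counts in every library. They were measured by bulk RNA-seq in subdural CNS-associated macrophages (sdCAMs), which reside in the leptomeninges and around vessels and were sorted as CD206+ cells from mouse brains freed of the choroid plexuses. All mice carried the genotype Mrc1CreERT2/CreERT2:R26tdT/tdT, that is, a tamoxifen-inducible Cre at both copies of the Mrc1 locus and, at both Rosa26 copies, a tdTomato (tdT) reporter that Cre switches on. All received tamoxifen, followed 4 weeks later by vehicle or by BLZ945, an inhibitor of the CSF-1 receptor on which macrophages depend, at 200 mg per kg on 7 consecutive days, and cells were sorted 8 weeks after treatment. The 12 libraries form 3 groups of 4, namely the tdT+ cells of mice given vehicle and, from mice given BLZ945, both tdT+ and tdT- cells. The exact age of each mouse is not given in the labels.

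The tdT+ cells are those that expressed Mrc1 when tamoxifen was given and their progeny, and the study used the tdT- cells of BLZ945-treated mice to follow macrophages that arose from other precursors. The driver and the sort bear on 1 of the 9 genes, because CD206, the protein used to gate all cells, is the product of Mrc1 itself. How the Cre insertion changes the Mrc1 transcript is not given in the sources used here, and it was shared by all groups. Mice are named F1, F2, M1 and M2 in each treatment. The tdT+ and tdT- libraries of BLZ945-treated mice with the same label came from the same mouse, whereas the vehicle-treated mice were other animals. No tdT- cells of vehicle-treated mice were analysed here, so the absence of tdT and the preceding BLZ945 treatment cannot be told apart where tdT- cells are set against vehicle cells.

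Scavenger receptors are surface proteins, unrelated in structure between classes, that bind modified lipoproteins, glycoproteins, haemoglobin complexes, apoptotic cells or microbes and in most cases carry them into the endolysosomal pathway. Macrophages at the borders of the brain are known for strong endocytic uptake from cerebrospinal fluid and from the perivascular space, and Mrc1 and Cd163 are widely used to tell them from microglia. The mannose receptor Mrc1 is a C-type lectin that is often listed with the scavenger receptors.

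Mrc1, Cd163, Stab1 and Cd36, each differentially expressed in at least 1 comparison described next, have an entry in a RefSeq promoter table. The 250 bases before their start are shown because these genes were lower in tdT- cells and because the motifs of macrophage transcription factors can be looked up in them. Coordinates of these windows are those of GRCm38.p6, and each sequence is written 5′ to 3′ on the strand of its gene. The start is that of the RefSeq entry used, which need not be the outermost start of the counted gene. Gene positions given further below are on GRCm39 and cannot be compared directly with these windows. The Mrc1 window lies at chr2:14229164-14229413 on the plus strand, the Cd163 window at chr6:124304401-124304650 on the plus strand the Stab1 window at chr14:31168642-31168891 on the minus strand and the Cd36 window at chr5:17835897-17836146 on the minus strand. Capitals mark matches to the motifs searched on both strands.
Mrc1: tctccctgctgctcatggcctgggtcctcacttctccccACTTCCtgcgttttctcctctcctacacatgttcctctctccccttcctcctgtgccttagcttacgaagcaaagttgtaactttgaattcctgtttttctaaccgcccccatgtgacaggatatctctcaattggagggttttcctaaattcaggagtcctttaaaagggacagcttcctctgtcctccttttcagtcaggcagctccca
Cd163: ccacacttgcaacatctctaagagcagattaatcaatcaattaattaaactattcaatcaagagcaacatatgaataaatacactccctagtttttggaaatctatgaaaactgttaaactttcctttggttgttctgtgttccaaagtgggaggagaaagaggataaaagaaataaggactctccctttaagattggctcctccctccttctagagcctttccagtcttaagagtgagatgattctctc
Stab1: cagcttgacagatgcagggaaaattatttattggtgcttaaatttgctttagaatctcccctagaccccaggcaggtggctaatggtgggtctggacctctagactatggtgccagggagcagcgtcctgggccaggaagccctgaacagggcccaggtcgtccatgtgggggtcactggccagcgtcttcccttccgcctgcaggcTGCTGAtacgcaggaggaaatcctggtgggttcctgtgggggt
Cd36: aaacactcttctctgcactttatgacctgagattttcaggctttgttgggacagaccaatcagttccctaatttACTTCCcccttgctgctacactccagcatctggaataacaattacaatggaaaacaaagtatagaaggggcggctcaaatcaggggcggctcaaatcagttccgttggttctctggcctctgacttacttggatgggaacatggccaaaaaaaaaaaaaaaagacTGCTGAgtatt
The Mrc1 window holds ACTTCC, the reverse strand of GGAAGT, which is a short form of the motif of PU.1, 211 to 206 bases before the start. The Stab1 window holds TGCTGA, the core of the motif of MAF, 43 to 38 bases before the start. The Cd36 window holds both, ACTTCC 176 to 171 and TGCTGA 11 to 6 bases before the start. Among 32851 promoter windows of the same length, 19.7% held GGAAGT and 16.1% held TGCTGA on either strand, so both are common letters. The Cd163 window, of 36.8% GC compared with a median of 52.4% over all windows, held neither of them. None of the 4 windows held TGANTCA (AP-1, in 6.75% of all windows), TGTGGT (RUNX, 14.05%) or CACGTG (E-box, 6.02%), which says only that these letters are not in these windows. A table entry was found for 5 of the 9 genes, the fifth being Marco.

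Sequencing depth was similar in all libraries, at 19969308 to 23395058 counts, and the share of mitochondrial counts was 0.702% to 1.13% in vehicle tdT+, 0.515% to 0.589% in BLZ945 tdT+ and 0.324% to 0.631% in tdT- libraries. The sorted cells were checked against marker lists by their summed level in TPM (counts scaled by exon length and library total). All 9 macrophage markers had counts in every group, and their sum was 90006 to 93685 TPM in vehicle tdT+, 105697 to 117582 TPM in BLZ945 tdT+ and 71199 to 92542 TPM in tdT- libraries. Of these 9 genes, 5 were called lower and 0 higher in tdT- than in BLZ945 tdT+ cells with DESeq2 (3 and 0 with edgeR). Over all tested genes, DESeq2 called 3.51% lower and 2.86% higher. The 2 groups did not overlap for 6 of the 9, compared with 9.35% of all tested genes. The 8 microglia markers summed to 7516 to 10830.0 TPM in vehicle tdT+, 10240 to 11595 TPM in BLZ945 tdT+ and 15436 to 29963 TPM in tdT- libraries. In tdT- compared with BLZ945 tdT+ cells, 7 of these 8 microglia genes were called higher with DESeq2, among them Tmem119 (log2 fold change 2.04, adjusted p = 4.24e-09). The eighth, Fcrls, was not called and lay lower, at 46213 to 68332 normalised counts in tdT- and 69972 to 74017 in BLZ945 tdT+ libraries. Its mean was 4336 TPM in vehicle tdT+, 4122 TPM in BLZ945 tdT+ and 3114 TPM in tdT- libraries, which enters the sums above. The part of the microglia genes in the differences described next was not tested. The tdT- library F2 held 63157 TPM of neutrophil markers, compared with 0.234 to 8.62 TPM in the other 11 libraries, together with 2982 TPM of monocyte and 5663 TPM of red blood cell markers. In the remaining tdT- libraries, monocyte markers summed to 54.5 to 135 TPM and red blood cell markers to 1.36 to 16.0 TPM. Red blood cell markers also varied within both tdT+ groups (9.15 to 1555 TPM and 71.7 to 2706 TPM). The sums for endothelial cells (up to 4.27 TPM), fibroblasts (up to 7.33 TPM), dendritic cells (up to 75.5 TPM) and lymphocytes (up to 90.2 TPM) were low. The deposited tdTomato entry had 0 counts in all 12 libraries and could therefore not be used to check the labels.

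**Figure D1:**
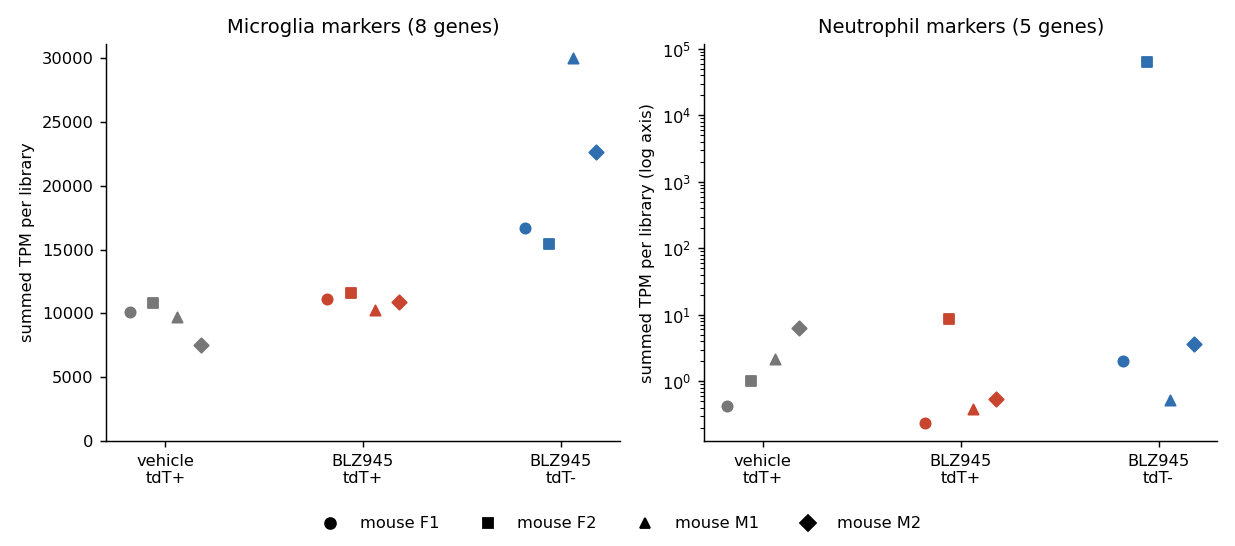
Summed level in TPM of the 8 microglia markers (left, linear axis) and the 5 neutrophil markers (right, log axis) in each of the 12 libraries by group, with symbols for the mouse label; vehicle mice are other animals. The tdT- libraries lie above all tdT+ libraries for microglia markers, and the tdT- library F2 stands apart from all others at 63157 TPM of neutrophil markers.

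The main contrast asked how tdT- sdCAMs of BLZ945-treated mice differed from the tdT+ sdCAMs of the same mice. Of the 8 tested receptor genes, 6 were lower in tdT- cells and 1 was higher, by the call used throughout, a DESeq2 adjusted p no higher than 0.05. Background shares over all 13724 tested genes were 3.51% called lower and 2.86% called higher. The values of the 2 groups did not overlap for 6 of the 8 genes, compared with 9.35% of all genes. The median log2 fold change was -1.06 over the 8 genes and 0.00 over all tested genes. The 4 genes Colec12, Cd163, Mrc1 and Stab1, were differentially expressed genes (DEGs), for which the log2 fold change also had to reach 1 in size. In bulk samples, fewer cells that express a gene and less RNA per cell cannot be told apart. Normalised counts given next are counts divided by a size factor of the library, and log2 fold changes are shrunken estimates with their standard error (SE).

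Mrc1 (chromosome 2, 14234203 to 14336868 of GRCm39, plus strand) encodes the mannose receptor, which takes up glycoproteins with terminal mannose, fucose or N-acetylglucosamine. In the order F1, F2, M1 and M2, normalised counts were 6012, 8869.6, 8302 and 7274 in vehicle tdT+, 8579, 8003, 12341 and 9918 in BLZ945 tdT+, and 3882, 3738, 2232 and 3421 in tdT- libraries. Every tdT- library lay below every tdT+ library of either treatment, although all cells were gated on the protein of this gene. The means of BLZ945 tdT+ and tdT- libraries were 9710.4 ± 1929 and 3318 ± 749 (SD, n = 4 each), a log2 fold change of -1.50 (SE 0.20) or 2.83-fold lower, with an adjusted p of 3.65e-13 in DESeq2 and 0.000892 in edgeR. The tdT- library M1 was the lowest of all 12 for Mrc1, and the log2 fold change without it was -1.36. This library also held the highest sum of microglia markers, and whether that bears on its Mrc1 level was not tested.

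Cd163 (chromosome 6, 124281615 to 124307486, plus strand), a receptor of the cysteine-rich scavenger class, clears complexes of haemoglobin and haptoglobin. Its normalised counts were 27419, 35695, 28348 and 25742 in vehicle tdT+, 42381, 39633, 51519 and 37376 in BLZ945 tdT+, and 6294, 5429, 5783 and 6846 in tdT- libraries. The 3 groups were fully separated, with BLZ945 tdT+ highest and tdT- lowest. Compared with BLZ945 tdT+ cells, Cd163 was 6.93-fold lower in tdT- cells (log2 fold change -2.79, SE 0.13), from 42727 ± 6208 to 6088 ± 618 (SD, n = 4 each), with an adjusted p of 7.81e-105 in DESeq2 and 3.94e-07 in edgeR.

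Stab1 (chromosome 14, 30860970 to 30890598, minus strand), a large endocytic receptor with fasciclin and EGF-like repeats, takes up modified lipoproteins and the extracellular protein SPARC. Normalised counts were 41791, 44869, 41133 and 42003 in vehicle tdT+, 46518, 50735, 71576 and 53784 in BLZ945 tdT+, and 26268, 19624, 16364 and 21270.0 in tdT- libraries. Again no 2 of the 3 groups overlapped, and the BLZ945 tdT+ library M1 stood highest. The means were 55653 ± 11025 in BLZ945 tdT+ and 20882 ± 4129.6 in tdT- libraries (SD, n = 4 each), a log2 fold change of -1.39 (SE 0.15), 2.61-fold lower, with an adjusted p of 1.21e-19 in DESeq2 and 0.000301 in edgeR. Exons of Stab1 overlap those of Nt5dc2 on the opposite strand, which had at most 1198 counts in any library.

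Colec12, Msr1 and Marco belong to class A, receptors with a collagen-like stalk. Colec12, which carries a C-type lectin domain and binds sugars, oxidised lipoproteins and microbes, had normalised counts of 6316, 7190.0, 7506 and 6660.3 in vehicle tdT+, 6149.7, 8576, 9322 and 10532 in BLZ945 tdT+, and 704, 894, 909 and 1091 in tdT- libraries. The highest tdT- library was thus far below the lowest tdT+ library. Colec12 was 9.46-fold lower in tdT- than in BLZ945 tdT+ cells (log2 fold change -3.24, SE 0.17), at means of 899.7 ± 158 and 8645 ± 1848 (SD, n = 4 each), the largest change among the 8 genes, with an adjusted p of 3.46e-75 in DESeq2 and 8.91e-07 in edgeR.

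Msr1 (chromosome 8, 40034726 to 40095714, minus strand), the macrophage receptor for acetylated and oxidised low-density lipoprotein, changed less. Its normalised counts were 7789.7, 8310.1, 7151 and 7253 in vehicle tdT+, 7731, 9069.8, 10500.5 and 11588 in BLZ945 tdT+, and 6889, 5122, 4014 and 7163 in tdT- libraries. All tdT- libraries were below all BLZ945 tdT+ libraries, but the highest tdT- library lay just above the lowest vehicle library. The log2 fold change of tdT- compared with BLZ945 tdT+ cells was -0.68 (SE 0.18), with an adjusted p of 0.00124 in DESeq2 and 0.0363 in edgeR, and 5797 ± 1494 compared with 9722 ± 1681 normalised counts (SD, n = 4 each). Marco (chromosome 1, 120402267 to 120432753, minus strand), a receptor for bacteria and particles, had 0 counts in all 12 libraries, and 3 counts, the limit that a count of 0 allows, correspond to 2.60 to 3.16 normalised counts.

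Cd36 and Scarb1 belong to class B, receptors with a pair of membrane spans, and bind lipoproteins and fatty acids. Cd36 (chromosome 5, 17986688 to 18093799, minus strand), which imports long-chain fatty acids and oxidised lipoprotein, had normalised counts of 13052, 20679.6, 18314 and 17225 in vehicle tdT+, 13073, 13276, 10533 and 9307 in BLZ945 tdT+, and 10885, 4584, 5703 and 4134 in tdT- libraries. The tdT- library F1 lay above 2 of the BLZ945 tdT+ libraries, while the other tdT- libraries lay below all of them. Cd36 was lower in tdT- than in BLZ945 tdT+ cells with a log2 fold change of -0.74 (SE 0.26) at an adjusted p of 0.0119 in DESeq2, but edgeR gave 0.117. The value depended on single libraries, since it was -1.22 without tdT- F1 and -0.52 without tdT- M1, where the adjusted p in DESeq2 was 0.184. The call was also lost in DESeq2 without BLZ945 tdT+ M1 (adjusted p = 0.165), tdT- M2 (0.0580), BLZ945 tdT+ F1 (0.0593) or BLZ945 tdT+ F2 (0.0608).

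Scarb1 (chromosome 5, 125354151 to 125418158, minus strand), the receptor for high-density lipoprotein, had normalised counts of 1262, 1120.1, 1213 and 802 in vehicle tdT+, 1145, 1876, 1510.5 and 2004 in BLZ945 tdT+, and 1434, 1033, 803 and 919.9 in tdT- libraries. The groups overlapped throughout. The log2 fold change of tdT- compared with BLZ945 tdT+ cells was -0.48 with a 95% interval of -1.001 to 0.04 (adjusted p = 0.133 in DESeq2 and 0.194 in edgeR). Leaving out tdT- F1, the only tdT- library above its own tdT+ partner, gave -0.70 with an adjusted p of 0.0217 in DESeq2.

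Cxcl16 (chromosome 11, 70344809 to 70350810, minus strand) is both a membrane-bound receptor for oxidised lipoprotein and phosphatidylserine and, once shed, the ligand of Cxcr6. Its normalised counts were 4162, 4765, 4386 and 4043 in vehicle tdT+, 4033, 4631, 4293 and 4119 in BLZ945 tdT+, and 6603, 4649, 6499 and 5424 in tdT- libraries. It was the receptor that moved the other way, with all tdT- libraries above the BLZ945 tdT+ libraries, although tdT- F2 exceeded the highest of them by little. The log2 fold change was 0.40 (SE 0.13), from 4269 ± 265 to 5794 ± 931 (SD, n = 4 each), with an adjusted p of 0.0148 in DESeq2, 0.106 in edgeR and 0.0992 in DESeq2 with the mouse as a replicate block. The call was also lost in DESeq2 without tdT- M1 (adjusted p = 0.0656) or F1 (0.0713), or without BLZ945 tdT+ M1 (0.0544), M2 (0.0652) or F1 (0.0732). Exons of Cxcl16 overlap those of Zmynd15 on the opposite strand, which had at most 240 counts in any library.

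**Figure D2:**
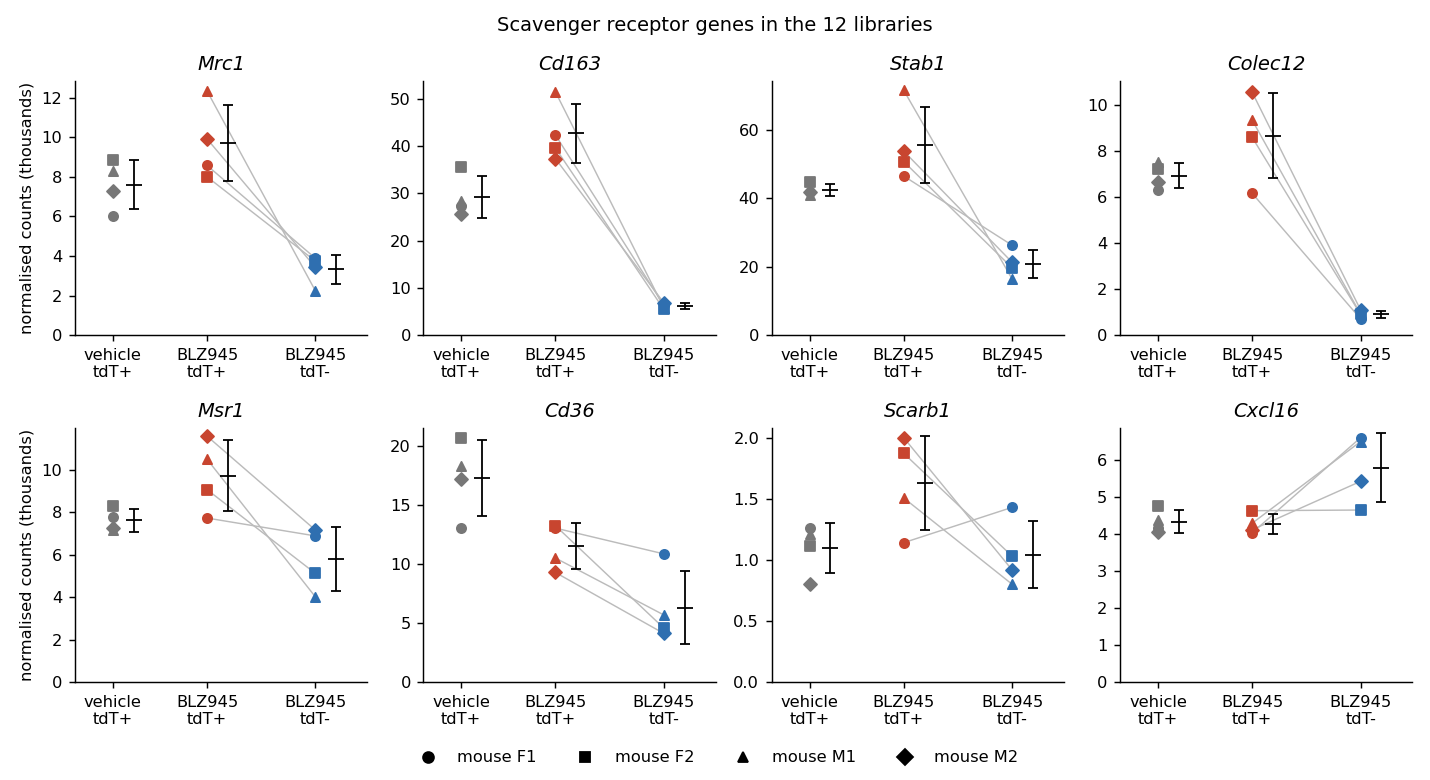
Normalised counts (in units of 1000, linear axes from 0) of the 8 receptor genes with counts in each of the 12 libraries, by group, with symbols for the mouse label, lines joining libraries of the same BLZ945-treated mouse, and group means with SD (n = 4); vehicle mice are other animals. The tdT- libraries of Colec12 (704 to 1091) lie below all tdT+ libraries (6149.7 to 10532), those of Cd163, Mrc1 and Stab1 likewise, and those of Cxcl16 (4649 to 6603) lie above the BLZ945 tdT+ libraries.

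Since tdT+ and tdT- libraries of BLZ945-treated mice came as pairs, the ratio was also taken within each mouse. In the order F1, F2, M1 and M2, the log2 ratio of tdT- to tdT+ normalised counts of Colec12 was -3.13, -3.26, -3.36 and -3.27. This was the most even of the 8 genes, with an SD of 0.096 over the 4 mice. Cd163 followed with -2.75, -2.87, -3.16 and -2.45. For Mrc1 the ratios spread more widely, at -1.14, -1.10, -2.47 and -1.54, as did those of Stab1 at -0.82, -1.37, -2.13 and -1.34. In both genes mouse M1 showed the greatest deficit. Msr1 was lower in tdT- cells of all 4 mice (-0.17 to -1.39), as was Cd36 (-0.26 to -1.53). Scarb1 was lower in 3 mice and higher in F1 (0.33). Cxcl16 was higher in all 4 mice, by 0.71 in F1, 0.60 in M1 and 0.40 in M2, but by only 0.01 in F2. With the mouse as a replicate block in DESeq2, the adjusted p was 1.27e-149 for Colec12, 7.63e-99 for Cd163, 1.89e-08 for Mrc1 and 0.00168 for Stab1. For the others it was 0.00414 for Msr1, 0.000166 for Cd36, 0.234 for Scarb1 and 0.0992 for Cxcl16.

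Another contrast compared the tdT+ cells of BLZ945-treated mice with those of vehicle-treated mice and so asked whether the tdT+ cells differed 8 weeks after the treatment. Here 1 of the 8 receptor genes was called, Cd163, compared with 0.481% of all tested genes called higher and 0.474% called lower. It rose from 29301 ± 4397 to 42727 ± 6208 normalised counts (SD, n = 4 each) without overlap, a log2 fold change of 0.49 (SE 0.13) with an adjusted p of 0.00366 in DESeq2. With edgeR the adjusted p was 0.245. Stab1 also had no overlap between the groups (vehicle 42449 ± 1655, BLZ945 55653 ± 11025), yet its log2 fold change of 0.29 had an interval of -0.02 to 0.60 (adjusted p = 0.243 in DESeq2). These 2 of 8 genes without overlap compare with 6.72% of all tested genes.

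For the other receptors the difference between the tdT+ groups is given with its interval. These intervals are centred on shrunken values, which are pulled toward 0, and do not bound the unshrunken difference. The 95% interval of the log2 fold change was -0.19 to 0.50 for Mrc1, -0.16 to 0.47 for Colec12 and -0.17 to 0.52 for Msr1. Cxcl16 had the narrowest one, at -0.19 to 0.16. Wider intervals were found for Scarb1 (-0.36 to 0.76) and for Cd36 (-0.91 to 0.40). The mean of Cd36 was lower after BLZ945, at 11547 ± 1946 compared with 17318 ± 3189 normalised counts (SD, n = 4 each), a log2 fold change of -0.26 (adjusted p = 0.413 in DESeq2 and 0.698 in edgeR). The median log2 fold change of the 8 genes was 0.16, compared with 0.00 over all tested genes.

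Comparing tdT- with vehicle cells shares its tdT- libraries with the first contrast and its vehicle libraries with the second, and its values are given beside theirs. Of the 8 genes, 5 were called lower and 1 higher with DESeq2, compared with 3.49% and 3.27% of all tested genes, and 5 did not overlap, compared with 9.7% of them. Colec12 was 7.55-fold lower (-2.92, SE 0.17, adjusted p = 7.26e-61 in DESeq2 and 1.75e-06 in edgeR) and Cd163 4.77-fold lower (-2.25, SE 0.13, adjusted p = 2.29e-67 in DESeq2 and 1.75e-06 in edgeR). Mrc1 was 2.20-fold lower (-1.14, SE 0.20, adjusted p = 5.78e-08 in DESeq2 and 0.00294 in edgeR) and Stab1 1.98-fold lower (-0.99, SE 0.15, adjusted p = 2.25e-10 in DESeq2 and 0.00152 in edgeR), the latter just short of the size required of a DEG. For Cd36 the log2 fold change was larger here than against BLZ945 tdT+ cells, at -1.37 (SE 0.26) with an adjusted p of 5.13e-07 in DESeq2 and 0.00830 in edgeR, and all tdT- libraries lay below all vehicle libraries. The difference between the tdT+ groups themselves was not called for Cd36. Msr1, called against BLZ945 tdT+ cells, had -0.32 with an interval of -0.66 to 0.02 here, and Scarb1 had -0.04 with an interval of -0.43 to 0.35. Cxcl16 was higher with 0.38 (SE 0.13, adjusted p = 0.0236 in DESeq2 and 0.135 in edgeR), although tdT- F2 lay below the highest vehicle library. This call was lost in 8 of 16 alternatives, among them DESeq2 without vehicle F1 (adjusted p = 0.0839), M1 (0.0684) or M2 (0.103) and without tdT- F1 (0.108) or M1 (0.103).

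**Figure D3:**
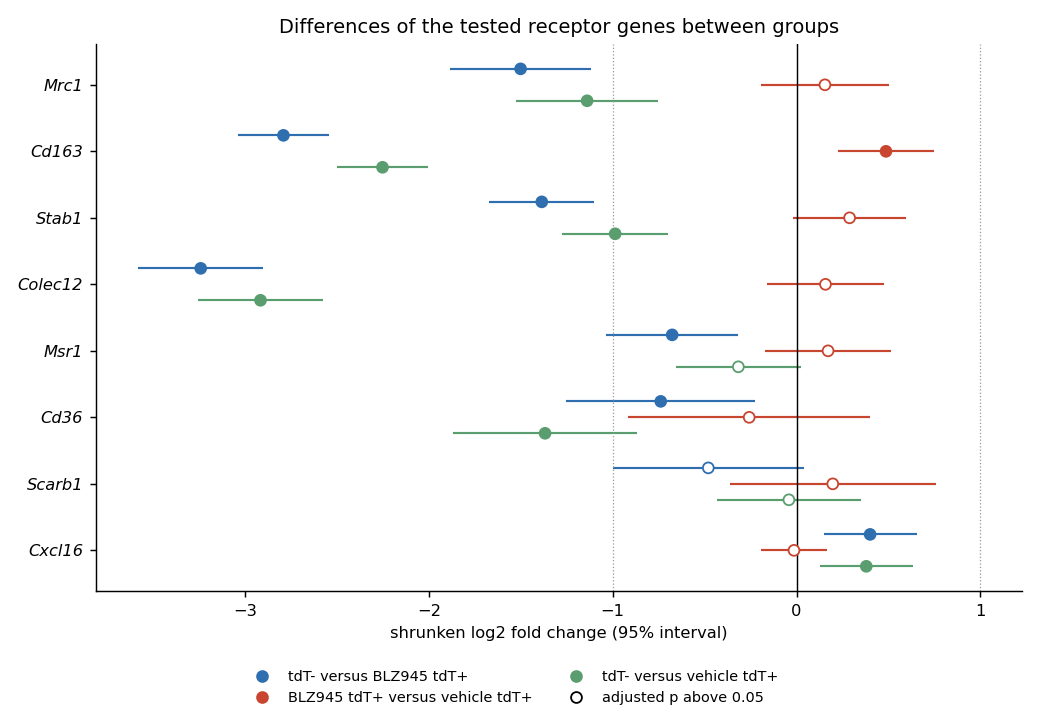
Shrunken log2 fold changes of the 8 receptor genes in the 3 comparisons, with lines for the 95% intervals, open symbols where the adjusted p of DESeq2 was above 0.05, a solid line at 0 and dotted lines at a size of 1. In tdT- cells Colec12 (-3.24 compared with BLZ945 tdT+) and Cd163 (-2.79) lie farthest from 0, whereas between the tdT+ groups only the interval of Cd163 (0.49) does not reach 0.

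Levels were compared between genes per exon length, in TPM. In vehicle tdT+ cells the order of the levels was Cd163 (708 ± 122), Cd36 (637 ± 132), Stab1 (543 ± 33.9), Cxcl16 (189 ± 17.9), Msr1 (158 ± 13.4), Mrc1 (158 ± 29.5), Colec12 (104 ± 9.85) and Scarb1 (16.997 ± 3.03; SD, n = 4 each). Neighbours from Cd163 to Stab1 and from Cxcl16 to Mrc1 had overlapping ranges, while the steps from Stab1 to Cxcl16, from Mrc1 to Colec12 and from Colec12 to Scarb1 were clear of the spread. The gene that names the sorted population thus had a lower mean RNA level than Cd163, Cd36, Stab1 and Cxcl16, and could not be placed apart from Msr1, which was higher in 2 of the 4 libraries. In BLZ945 tdT+ cells the order was Cd163 (1041 ± 180.4), Stab1 (719.9 ± 162), Cd36 (426 ± 68.7), Msr1 (203 ± 36.1), Mrc1 (203 ± 45.6), Cxcl16 (187 ± 11.1), Colec12 (131 ± 28.2) and Scarb1 (25.4 ± 5.68). Here Stab1 lay clear of Cd36, and Cd36 clear of Msr1, but Msr1, Mrc1 and Cxcl16 overlapped.

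In tdT- cells Stab1 (245 ± 53.6 TPM), Cxcl16 (231 ± 38.5) and Cd36 (214 ± 109.9) stood first with overlapping ranges. Cd163 (134 ± 14.4) lay below Stab1 and Cxcl16 in every library but overlapped Cd36, and had the next mean, followed by Msr1 (110.3 ± 29.7), Mrc1 (62.9 ± 15.1), Scarb1 (14.9 ± 4.24) and Colec12 (12.4 ± 2.03). Scarb1 and Colec12 overlapped, whereas in tdT+ cells every library held more Colec12 than Scarb1. Among all 13724 tested genes, Cd163 ranked 176 in vehicle tdT+, 108 in BLZ945 tdT+ and 957 in tdT- cells, and Colec12 ranked 1285, 1015 and 5986. The summed level of the receptors was 2515 ± 335 TPM in vehicle tdT+, 2937 ± 388 TPM in BLZ945 tdT+ and 1025 ± 218 TPM in tdT- libraries (SD, n = 4 each), with ranges of 2179 to 2972, 2727 to 3519 and 883 to 1346 TPM.

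**Figure D4:**
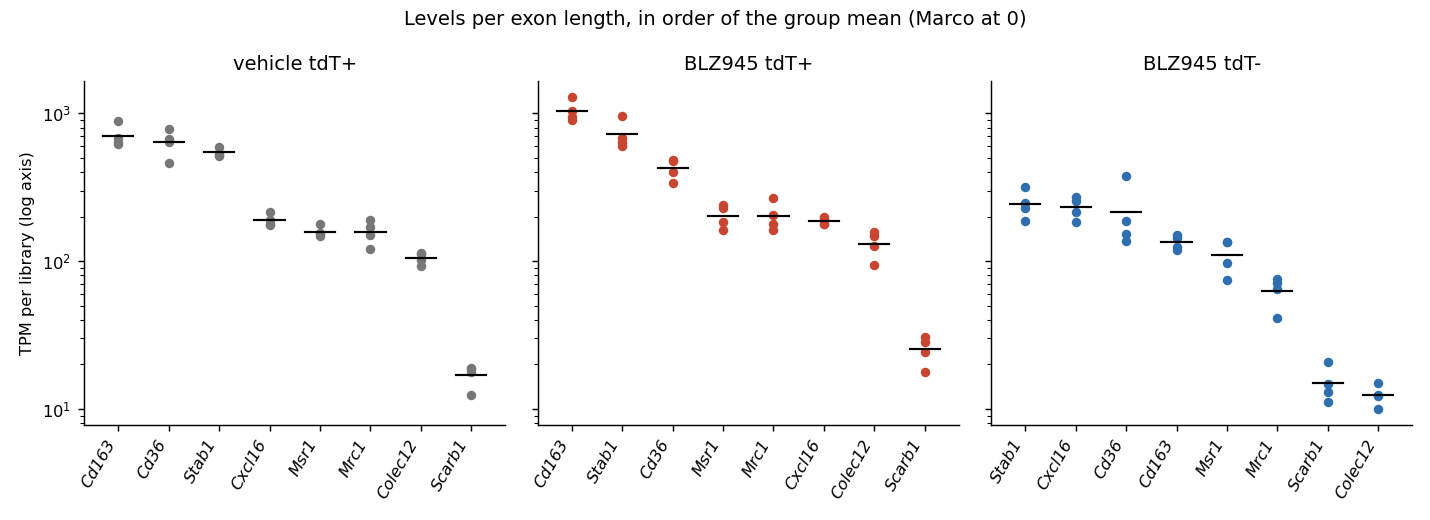
Level per exon length (TPM, log axis) of the 8 receptor genes with counts in the 3 groups, each panel in the order of its means, with 1 point per library and bars for the group means. Cd163 is the highest in tdT+ cells (708 and 1041 TPM) but has a lower mean than Stab1, Cxcl16 and Cd36 in tdT- cells (134 TPM). The group means of Cxcl16 are 189 TPM in vehicle tdT+, 187 TPM in BLZ945 tdT+ and 231 TPM in tdT- cells.

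How closely the genes varied with each other was described by Pearson's r of log2(normalised count + 1) over the 12 libraries, which share their 3 groups, so that any pair of genes that differ between groups will correlate. Among the receptors, r was 0.973 for Mrc1 and Stab1, 0.978 for Cd163 and Colec12, and 0.962 for Cd163 and Stab1. Cd36 was less like them (0.702 with Mrc1 and 0.738 with Cd163), and Cxcl16 ran opposite to Mrc1 (-0.787) and Colec12 (-0.819). Out of 9308 candidate genes, those most like Mrc1 were Stab1, Abcg3 (0.969) and N4bp2 (0.952), and those most like Stab1 were Adgre1 (0.975), which encodes F4/80, Mrc1 and Cd163. The genes most like Cd163 were Hgsnat (0.983), a lysosomal acetyltransferase, the complement gene C4b (0.982) and Colec12. Complement genes also stood beside Colec12, C2 (0.985) and C4b (0.976), together with Cd163. The closest to Cd36 were Coro2b (0.946), Selenbp1 (0.931) and Klhl9 (0.912).

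Lists of related genes were set beside the receptors. Of 13 tested members of a list of other scavenger and lectin receptors, 1 was lower in tdT- than in BLZ945 tdT+ cells and none higher, with a median log2 fold change of -0.00 compared with -1.06 for the 8 receptors described here. Some genes of this list had far lower counts than the 8 receptors. Shrinkage pulls such values strongly toward 0, so the medians do not compare like with like. The gene that fell was Timd4, a receptor for phosphatidylserine on apoptotic cells, with normalised counts of 3465 to 7368 in BLZ945 tdT+ and 226 to 1071 in tdT- libraries and a difference of -3.53 on the log2 scale (SE 0.40, DESeq2 adjusted p = 3.03e-17). Compared with vehicle cells, Timd4 fell by 3.13 on the log2 scale, and Lrp1 (0.47, adjusted p = 0.0262 in DESeq2 and 0.114 in edgeR) and Cd14 (0.39, adjusted p = 0.0351 in DESeq2 and 0.175 in edgeR) were higher. Mrc2, a paralogue of Mrc1 that takes up collagen, had 0 counts in all vehicle libraries, 1.05 to 155 normalised counts in BLZ945 tdT+ and 65.0 to 412 in tdT- libraries. Set against 3 counts in each vehicle library, the Mrc2 mean was 31.6-fold higher in BLZ945 tdT+ and 79.2-fold higher in tdT- cells. These folds are no lower bounds, since the 3 counts cover counting error only and the libraries were amplified. BLZ945 tdT+ M2 itself had 1 count of Mrc2. Against vehicle cells, edgeR gave adjusted p values of 0.207 for BLZ945 tdT+ and 0.00962 for tdT- cells.

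Genes that handle haemoglobin, haem and iron, the cargo of Cd163, were tested for 10 members. In tdT- compared with BLZ945 tdT+ cells 3 were lower and none higher, with a median of -0.20. These were Slc40a1, the iron exporter ferroportin (-1.21, SE 0.20, adjusted p = 1.05e-08 in DESeq2), Trf, the iron carrier transferrin (-0.63, SE 0.09, 2.32e-10), and Blvrb, a biliverdin reductase (-0.51, SE 0.12, 0.000331). Compared with vehicle cells 6 were lower, among them Slc40a1 (-1.47), Blvrb (-0.64), the ferritin heavy chain gene Fth1 (-0.54) and Trf (-0.49). Between the tdT+ groups, Fth1 (-0.41, adjusted p = 1.73e-07 in DESeq2 and 0.0427 in edgeR) and the light chain gene Ftl1 (-0.30, adjusted p = 0.0411 in DESeq2 and 0.341 in edgeR) were lower after BLZ945, while Cd163 was higher.

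Of 16 genes of lipid handling, the pathway served by Cd36, Scarb1 and Msr1, 3 were higher and 3 lower in tdT- than in BLZ945 tdT+ cells, with a median of -0.01. Lpl, the lipoprotein lipase, rose most (2.12, SE 0.48, adjusted p = 2.65e-05 in DESeq2), while Fabp5 (1.14, adjusted p = 0.0164 in DESeq2 and 0.169 in edgeR) and the cholesterol exporter Abcg1 (0.85, 0.0217 in DESeq2, 0.101 in edgeR and 0.0664 with the replicate block) passed in DESeq2 without the block. Lipa, the lysosomal acid lipase that splits cholesteryl esters taken up by these receptors, was lower (-0.63, SE 0.10, adjusted p = 2.25e-08). Compared with vehicle cells, 2 of the 16 genes were called, Lipa (-0.66) and the cholesterol exporter Abca1 (-0.58), both lower. Between the tdT+ groups DESeq2 called 0 of the 16, with 2 at an unadjusted p under 0.05 and 0 called by edgeR.

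Of 11 genes for endocytic adaptors and sorting, 3 were lower and none higher in tdT- than in BLZ945 tdT+ cells, with a median of -0.18. They were Dab2, a clathrin adaptor (-0.84, SE 0.19, adjusted p = 3.79e-05 in DESeq2), Gga1, which sorts cargo at the trans-Golgi network (-0.58, SE 0.16, 0.00195), and Cltc, the clathrin heavy chain (-0.53, SE 0.11, 2.43e-05). The same 3 genes were called lower compared with vehicle cells, at -0.63, -0.55 and -0.49, and between the tdT+ groups DESeq2 and edgeR called 0 of the 11, with 0 at an unadjusted p under 0.05. Adam10 and Adam17, the proteases that shed Cxcl16, had log2 fold changes of 0.08 and 0.06 in the first contrast, where DESeq2 and edgeR called 0 of the 2 and 0 had an unadjusted p under 0.05. In the other comparisons neither was called by DESeq2 or edgeR, and 1 had an unadjusted p under 0.05, in tdT- compared with vehicle cells. Cxcr6 did not pass the filter.

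Transcription factors known to act on scavenger receptor genes were looked up as well. Maf was lower in tdT- than in BLZ945 tdT+ cells (-0.67, SE 0.12, adjusted p = 4.14e-07 in DESeq2). Irf8 (0.51, adjusted p = 0.00624 in DESeq2, 0.0769 in edgeR and 0.0566 with the replicate block) and Spi1, which encodes PU.1 (0.30, adjusted p = 0.0143 in DESeq2, 0.140 in edgeR and 0.106 with the block), were called higher in DESeq2 without the block. Compared with vehicle cells, Irf8 (0.44, adjusted p = 0.0220 in DESeq2 and 0.131 in edgeR) was called higher and Maf (-0.84) lower. Between the tdT+ groups the log2 fold changes were -0.13 for Maf, -0.03 for Irf8 and -0.09 for Spi1, none of them called by DESeq2 or edgeR.

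**Figure D5:**
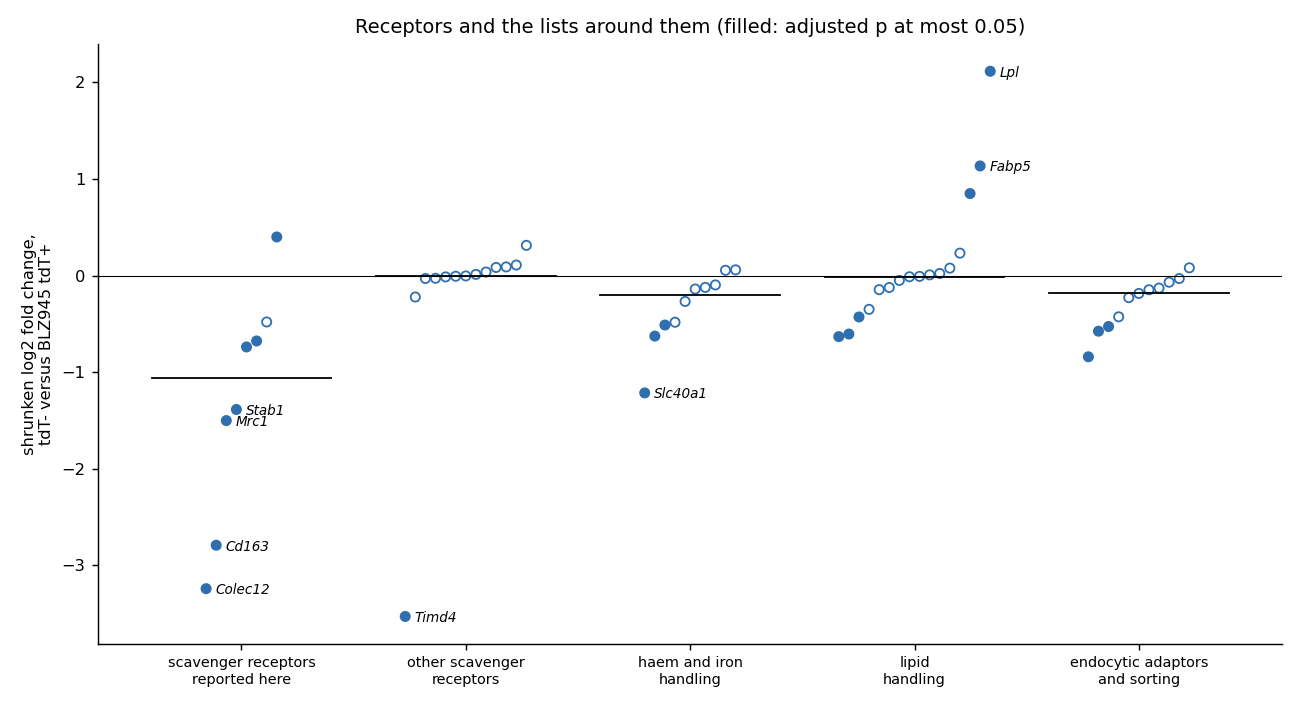
Shrunken log2 fold changes of the tested genes of the receptors and 4 other lists in tdT- compared with BLZ945 tdT+ cells, with 1 point per gene, filled points for the called genes and a bar at each median. The median of the 8 receptors is -1.06, compared with -0.00 for the other scavenger and lectin receptors, and Timd4 (-3.53) is the gene of that second list that was called. Some genes of the second list had low counts, where shrinkage pulls values strongly toward 0.

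With 2 mice of each letter in a group, it was also tested with edgeR whether the differences depended on the letter F or M of the mouse label. None of the 8 genes passed, and 0 of 13724 genes did in any comparison. Genes with an unadjusted p under 0.05 numbered 984, 449 and 1103 in tdT- compared with BLZ945 tdT+, BLZ945 tdT+ compared with vehicle and tdT- compared with vehicle. In the first of these, the receptors with an unadjusted p under 0.05 were Mrc1 (M minus F, -0.86) and Stab1 (-0.66), each with an adjusted p of 0.652 in edgeR, and both include the low values of tdT- M1.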

How the data were processed

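Bulk RNA-seq of 12 libraries of sorted sdCAMs was analysed from a single deposited count table. The deposited values are raw counts of reads per gene symbol, which the authors obtained, per the file headers, by running featureCounts 2.0.6 over the exons of GENCODE M33 (GRCm39, filtered, tdTomato added), unstranded and leaving out reads that map to several places. The submitters' processing notes name bcl2fastq 2.20, STAR 2.7.11a and DESeq2 1.46.0. Libraries were amplified by PCR without molecular identifiers, so limits on counts cover counting error only. Where genes overlap on opposite strands, unstranded counts cannot separate them. A vehicle column whose name writes M1 was assigned to mouse M2 by its library number, which concerns the label and not the group.

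Genes under 10 counts in 75% or more of the libraries were removed, as in the study, and 13724 of 56735 genes remained (32387 had 0 counts in all libraries). DESeq2 1.42.0 was run in R 4.3.3 (Wald test, two-sided, all 12 libraries in 1 fit, group as the term) with fold changes shrunken by apeglm 1.24.0, p adjusted by Benjamini-Hochberg over all 13724 genes, and a call at an adjusted p of at most 0.05. The adjusted p of the quasi-likelihood test of edgeR 4.0.16 is given beside the call of each receptor. The steps were run on simulated counts with known changes. A limit on false calls over all genes was set there for edgeR only. For DESeq2 it was set only among DEGs of high mean count, so the run does not vouch for every DESeq2 call. Intervals are the shrunken value plus or minus the normal quantile times its SE. TPM was computed from the deposited counts and exon lengths.

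The receptors and all lists were chosen with earlier results of these data known. All 9 receptors are named with every library. From each other list at most the 4 called genes of largest change are named, and for each receptor that was a DEG the 3 genes of highest correlation with a mean normalised count of 100 or more. Adam10, Adam17 and Cxcr6 are named as the whole of their list. Fcrls is named as the microglia marker that was not called higher. Cd163l1 was not found in the table under that symbol. Promoter sequences are from RefSeq on GRCm38.p6, and the position of Colec12 and a result for 1 listed gene are not reported here.

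The pairing of tdT+ and tdT- libraries comes from the labels, which give the same mouse. Deviations from the group means of the same mouse correlated with r between -0.0046 and 0.0352 over all tested genes, and between 0.106 and 0.264 over the 3538 genes whose mean normalised count was 1000 or more. Alternatives were edgeR with TMM, TMM factors in DESeq2, no filter or a filter of 50 counts in 4 libraries, the 8 libraries of a comparison alone, the mouse label as replicate block, the letter as covariate, no shrinkage and each library left out. Leaving out the shrinkage does not change the adjusted p.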

Additional observations from a re-analysis of the deposited data

How the results depend on the processing

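Over 384 alternative values of the 8 receptors in the 3 comparisons, 355 kept their side of the threshold, 24 lost the call, 5 gained it and 0 changed the direction of a called value. Uncalled values near 0 could change sign, as did Scarb1 in tdT- compared with vehicle cells (-0.17 to 0.02). Values without shrinkage are among the 384 and share the adjusted p of the main fit, so their call could not differ. In tdT- compared with BLZ945 tdT+ cells, Mrc1 (-1.58 to -1.36), Cd163 (-2.86 to -2.70), Stab1, Colec12 and Msr1 kept their call in all 16 alternatives, whereas Cd36 lost it in 8 and Cxcl16 in 7 (log2 fold change 0.34 to 0.49 over the libraries left out). The count of called receptors there was 7, 5 with edgeR and 5 to 7 with a library left out. Over all 13724 tested genes, calls in this contrast numbered 875, and 377 with edgeR. In BLZ945 tdT+ compared with vehicle cells, 4 of the 8 receptors had an unadjusted p under 0.05 in DESeq2. No share over all genes was taken at this threshold, so that number cannot be read as a result about the receptors. The count of called receptors was 1, with 0 by edgeR, and 1 with any library left out. It was 3 with the 8 libraries of that comparison alone and 3 with the replicate block, which added Stab1 (0.31, adjusted p = 0.0398 in DESeq2) and Cd36 (-0.51, adjusted p = 0.00588), although vehicle and BLZ945 mice share only a label. Calls over all tested genes moved as well, from 131 to 9 with edgeR, 325 with the 8 libraries and 389 with the block. In tdT- compared with vehicle cells the count of called receptors was 6, and 5 with edgeR, the 8 libraries, the block or 5 of the 8 libraries left out in turn, since Cxcl16 lost its call in these 8 of 16 alternatives (block 0.34, adjusted p = 0.157 in DESeq2). Over all tested genes 928 were called there, 446 with edgeR, 760 with the 8 libraries and 1015 with the block. The cause of these shifts was not tested. Among the other lists, the 1 other scavenger receptor called in the first contrast became 2 with no filter and without tdT- F1, tdT- F2 or BLZ945 tdT+ F2. Between the tdT+ groups the 1 other scavenger receptor became 0 with edgeR, 2 with no filter, 3 with the 8 libraries or without BLZ945 tdT+ F2 and 4 with the block, the 2 haem genes became 1 with edgeR and without 6 of the 8 libraries in turn, and the 0 lipid genes became 1 with the 8 libraries or without BLZ945 tdT+ F2 and 2 with the block. Compared with vehicle cells, the 4 other scavenger receptors in tdT- cells became 2 with edgeR and without vehicle F2 or M2, and the 2 lipid genes became 4 without tdT- F1. No scaling moved the median of all genes by more than 0.1 on the log2 scale. With 4 libraries a group, p values of the main fit rest on the spread between libraries within the groups, taken over all 3 groups. That fit does not use the pairing of tdT+ and tdT- libraries. The amplified counts limit what low values can show.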
